A study of Rattus norvegicus with 12 samples.

Results

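The genes described here are those of the rat proteasome, taken as the probe sets whose only gene symbol in the array's annotation begins with Psm, a letter from a to g and a digit. They numbered 46 genes of the 14217 genes with such probe sets on the array, read by 60 probe sets. Of the 46 genes 37 had 1 probe set and 9 had several, and each gene was read by the probe set with the highest mean over the 12 arrays. All 46 of these passed the low-value filter, set at 5.69 log2, as did 57 of the 60 probe sets. The 3 below it were further probe sets of Psmb5 and Psmd14. The rule also took in Psmc3ip, a meiotic recombination factor, and Psme3ip1, which were listed here as name matches and not as subunits. Without them 44 genes remained. Probe sets with several symbols, 6 in all, were left out, so Psmb6 and Psme3 were not analysed here. Psma8, the testis alpha subunit, and Psmb11 were not analysed here either.

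The samples were whole testes of male Sprague-Dawley rats on Affymetrix arrays, 12 arrays in 4 groups of 3. All pups had received a casein diet, AIN-93G, during lactation and were assigned to a group on postnatal day 21. The first group kept the casein diet with no hormone. The second had the casein diet and 17beta estradiol by subcutaneous infusion from osmotic minipumps, at 10 µg per kg per day. The third ate AIN-93G in which soy protein isolate (SPI) replaced casein, and the fourth had the SPI diet with the same estradiol infusion. Diets ran from day 21 to 33 and testes were frozen on day 34. The labels do not say whether each array held a separate animal; a p-value here therefore reflects the spread among arrays, which may be technical. Soy plus estradiol replicate 2 stood apart from the other arrays in the cap subunits of the proteasome. Values of a member's highest-mean probe set that move with this array, by over 1.5 times or in sign, are given with and without it. For the cell markers, antigen processing genes and other pathway genes below, differences without this array or under other scalings were not computed.

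The proteasome degrades proteins that carry ubiquitin chains. Its core particle, the 20S, is a barrel of alpha rings, which gate it, around beta rings, which hold the protease sites. The cap, the 19S, recognises ubiquitin, removes it and threads the substrate in with a ring of ATPases. In immune cells, and in other cells under interferon, the subunits Psmb8, Psmb9 and Psmb10 replace the standard protease subunits and change which peptides reach antigen presentation. In male germ cells other variants are known, among them cores with the testis alpha subunit and cores bound by the activator PA200 (Psme4), which takes part in histone removal in spermatids.

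Promoter sequence is shown for 6 genes: Psma5, Psmb2 and Psmc6, which were higher with estradiol on both diets, and the immunoproteasome subunits Psmb8, Psmb9 and Psmb10, which were lower with it on casein. Each line gives the 250 bases before the RefSeq transcription start in the assembly GRCr8, written 5′ to 3′ along the gene. Capitals mark 4 motifs searched on both strands: CCAAT, bound by NF-Y; TGACNNNGC, the core of the antioxidant response element bound by Nrf1 and Nrf2; GAAA and GAAA with 2 bases of any kind between them, a core of the interferon-stimulated response element; and TTCNNNGAA, a core of the gamma-activated site. The windows were Psma5 at chr2:198584255-198584504 on the plus strand, Psmb2 at chr5:144254808-144255057 on the plus strand and Psmc6 at chr15:21022064-21022313 on the plus strand. The others were Psmb8 at chr20:4657032-4657281 on the minus strand, Psmb9 at chr20:4668750-4668999 on the plus strand and Psmb10 at chr19:50743293-50743542 on the minus strand.
Psma5: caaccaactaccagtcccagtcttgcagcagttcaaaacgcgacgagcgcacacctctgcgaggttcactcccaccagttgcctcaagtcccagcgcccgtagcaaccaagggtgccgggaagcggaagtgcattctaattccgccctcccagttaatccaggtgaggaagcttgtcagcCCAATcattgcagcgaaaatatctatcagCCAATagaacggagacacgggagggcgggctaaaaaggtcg
Psmb2: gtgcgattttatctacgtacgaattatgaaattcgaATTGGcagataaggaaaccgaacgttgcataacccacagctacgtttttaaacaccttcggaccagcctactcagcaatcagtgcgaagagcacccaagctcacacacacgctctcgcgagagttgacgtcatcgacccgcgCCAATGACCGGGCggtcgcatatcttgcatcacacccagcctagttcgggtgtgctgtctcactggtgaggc
Psmc6: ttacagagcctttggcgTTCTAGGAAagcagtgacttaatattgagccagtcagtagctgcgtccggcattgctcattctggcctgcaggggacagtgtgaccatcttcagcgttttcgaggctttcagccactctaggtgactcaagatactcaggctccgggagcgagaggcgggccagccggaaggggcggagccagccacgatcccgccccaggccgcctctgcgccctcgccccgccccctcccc
Psmb8: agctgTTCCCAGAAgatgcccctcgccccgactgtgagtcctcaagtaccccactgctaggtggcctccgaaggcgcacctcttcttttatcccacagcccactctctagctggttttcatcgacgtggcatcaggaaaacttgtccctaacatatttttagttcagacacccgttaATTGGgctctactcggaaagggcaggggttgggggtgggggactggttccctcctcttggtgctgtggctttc
Psmb9: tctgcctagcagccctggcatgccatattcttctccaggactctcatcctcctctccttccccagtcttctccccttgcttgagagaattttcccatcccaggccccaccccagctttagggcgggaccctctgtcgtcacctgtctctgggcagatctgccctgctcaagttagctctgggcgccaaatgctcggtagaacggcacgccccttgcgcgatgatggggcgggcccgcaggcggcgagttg
Psmb10: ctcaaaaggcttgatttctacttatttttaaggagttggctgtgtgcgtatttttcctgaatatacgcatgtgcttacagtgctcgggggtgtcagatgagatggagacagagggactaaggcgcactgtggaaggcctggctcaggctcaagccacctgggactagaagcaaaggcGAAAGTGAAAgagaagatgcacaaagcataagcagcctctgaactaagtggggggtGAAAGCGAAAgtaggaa

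Such windows were listed for 42 of the 46 genes and not for Psma7, Psmd6, Psmd12 and Psmd14. CCAAT occurred in 21 of the 42 (50%), against 34.0% of all 33469 windows in the table. The antioxidant core occurred in 6 (14.3%), against 10.1% of all windows: Psma3, Psmb2, Psmb5, Psmd1, Psmd9 and Psme4. In Psmb2 its TGACCGGGC shared its first base with the last base of a CCAAT, so that the run CCAATGACCGGGC held both. The interferon core occurred in 5 (11.9%), against 3.41%: Psma4, Psmb3, Psmb10, Psmd7 and Psme2. Psmb10 had it at GAAAGTGAAA, 73 to 64 bases before the start, and at GAAAGCGAAA, 17 to 8 bases before it. The gamma-activated core occurred in 4 (9.52%), against 7.67%. A match is a string of letters, and no binding was measured. Psmb9 had none of the 4 motifs in its window; its start lies 456 bases from that of Tap1, the peptide transporter gene, which is read in the opposite direction.

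Estradiol on the casein diet was the first comparison, asking how an exogenous estrogen altered these transcripts. Of 46 genes 12 rose (26.1%) and 6 fell (13.0%), where 21.9% of all 21729 probe sets tested rose and 19.9% fell. Calls in either direction made up 39.1% of the members and 41.8% of all probe sets. A call here is an adjusted p under 0.05 in limma, with p adjusted over all probe sets tested. The members' median difference was 0.09 log2 against 0.02 for all probe sets tested, and they ran from -0.69 to 0.61. With estradiol, 22 members had all 3 arrays above all 3 controls (32% of all probe sets did) and 9 had all 3 below (28%). The rises on casein depended on the scaling between arrays: 5 rose and 8 fell on the values as deposited, and 4 rose and 11 fell on values centred on each array's median. Without casein plus estradiol replicate 3 the count of rises was 6. Without soy plus estradiol replicate 2, which enters this comparison only through the shared estimate of spread, 18 rose and 7 fell.

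Estradiol on the soy diet gave more rises. There 20 members rose (43.5%), where 25.3% of all probe sets tested rose, and 4 fell (8.70%), where 24.3% fell. Called either way were 52.2% of the members and 49.5% of all probe sets. The median was 0.12 log2 against -0.02 for all probe sets, with a range of -0.48 to 0.66. All 3 estradiol arrays lay above all 3 controls in 21 members (27.9% of all probe sets) and below them in 8 (29.4%). The counts were 18 and 4 on the deposited values and again on the centred ones; without soy replicate 1 the count of falls was 2. The difference between the count of rises on soy and that on casein was not itself tested.

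**Figure D1:**
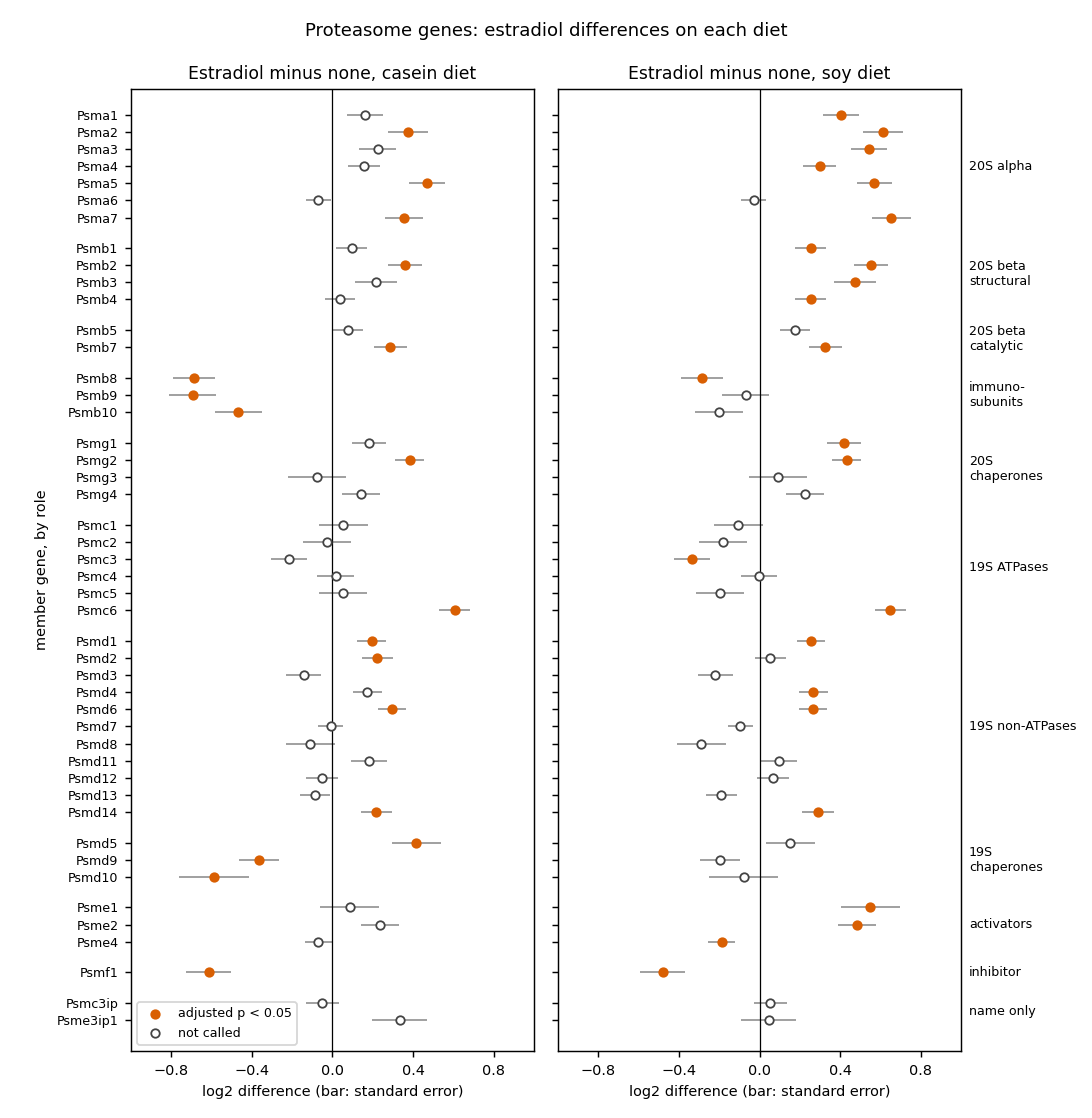
Log2 difference of estradiol minus none (x axis) for each of the 46 genes (y axis, grouped by role), on casein at left and soy at right; bars are standard errors and filled points are calls at an adjusted p under 0.05. On quantile-normalized values 12 genes rose and 6 fell on casein, 20 rose and 4 fell on soy, and the immunosubunits stand at the low end on casein; on casein 7 of the rises were not called on the deposited values.

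The same 10 genes rose on both diets: Psma2, Psma5, Psma7, Psmb2, Psmb7, Psmc6, Psmd1, Psmd6, Psmd14 and Psmg2, which were 83.3% of those risen on casein and 50% of those on soy. Both diets shared 2 falls, Psmb8 and Psmf1, which were 33.3% of the casein falls and 50% of the soy falls. No gene rose on 1 diet and fell on the other, and 16 were called on neither. The 2 contrasts have no arrays in common. Of all probe sets tested, 41.8% were called on casein and 49.5% on soy, and those called on both were not counted. The overlap is therefore not read as particular to these genes. Of the 10 shared rises, 6 were not called on casein on the deposited values (Psma2, Psma7, Psmb7, Psmd1, Psmd6 and Psmd14), and on centred values Psmb2 was not called either. Psmd2, which rose on casein and was not called on soy, also lost its call under both scalings. The 4 rises kept under all 3 scalings on casein were Psma5, Psmc6, Psmg2 and Psmd5.

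In the alpha ring of the core 3 of 7 genes rose with estradiol on casein (42.9%, where 21.9% of all probe sets did). On soy 6 of 7 rose (85.7%, where 25.3% did), and 0 fell on either diet. The median on casein was 0.22 log2, and of the 3 rises that of Psma5 alone was called on the deposited and the centred values. On soy the median was 0.54, and 6 rose under all 3 scalings. Psma5, an alpha subunit of the core, read 10.59, 10.63 and 10.65 log2 on casein and 11.02, 11.05 and 11.20 with estradiol. The soy arrays were at 10.59, 10.56 and 10.71, and those with estradiol at 11.24, 11.34 and 11.0035. The groups did not overlap on either diet, and the control groups overlapped each other. It rose by 0.47 ± 0.09 log2 (SE, n = 3 against 3; adjusted p = 0.00143) on casein, 1.38-fold, and by 0.57 (adjusted p = 0.000365) on soy, 1.49-fold.

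Psma7, another alpha subunit, showed its largest rise on soy. Its values were 10.46, 10.44 and 10.56 on casein and 10.80, 10.74 and 10.99 with estradiol. The soy controls all read 10.42, and the soy arrays with estradiol 11.24, 11.13 and 10.85. Estradiol arrays were above the controls on both diets. The rise was 0.66 ± 0.10 (SE, adjusted p = 0.000297) on soy. On casein it was 0.36 (adjusted p = 0.0112), and this call was lost without casein plus estradiol replicate 3, at an adjusted p of 0.0531, in a range of 0.000301 to 0.143 over its 22 alternatives.

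Psma2 read 10.72, 10.74 and 10.78 on casein, 11.06, 11.08 and 11.23 with estradiol, 10.70, 10.65 and 10.73 on soy, and 11.39, 11.48 and 11.05 on soy with estradiol. It rose by 0.37 (adjusted p = 0.00875) and 0.61 (adjusted p = 0.000447). Psma1, Psma3 and Psma4 rose on soy, by 0.40, 0.54 and 0.30. On casein their differences were 0.16, 0.22 and 0.16 and were not called. Psma6 was the exception in the ring: its differences were -0.07 on casein and -0.03 on soy (-0.08 without soy plus estradiol replicate 2), and its 12 arrays lay between 13.38 and 13.65.

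Among the beta subunits without protease sites, Psmb1 to Psmb4, 1 of 4 rose on casein (25%, where 21.9% of all probe sets did). On soy 4 of 4 rose (where 25.3% of all did). The medians were 0.16 and 0.36, the first of which was -0.01 on centred values. Psmb2 was the gene that rose on both. It measured 10.86 ± 0.04 (SD, n = 3) on casein and 11.23 ± 0.09 with estradiol, a rise of 0.36 (adjusted p = 0.00483) that was not called on centred values. On soy it measured 10.84 ± 0.01 and 11.40 ± 0.18, a rise of 0.55 (adjusted p = 0.000346). Psmb3 rose on soy by 0.47. Psmb1 and Psmb4 rose on soy by 0.25 each, and by 0.16 each without soy plus estradiol replicate 2, and neither was called on the deposited or the centred values. Psmb1 was also lost without soy replicate 1, at an adjusted p of 0.0576, in a range of 0.0085 to 0.0967 over the alternatives.

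The standard protease subunits differed from each other. Psmb7, which carries the trypsin-like site, read 10.21, 10.26 and 10.26 on casein, 10.48, 10.45 and 10.66 with estradiol, 10.27, 10.32 and 10.42 on soy, and 10.77, 10.71 and 10.51 on soy with estradiol. It rose by 0.29 (adjusted p = 0.0152) on casein and 0.33 (adjusted p = 0.00656) on soy. The casein call was lost on the deposited and the centred values and without casein plus estradiol replicate 3, at an adjusted p of 0.0721, in a range of 0.00132 to 0.215. Psmb5, which carries the chymotrypsin-like site, read 11.71, 11.69 and 11.73 on casein and 11.72, 11.80 and 11.84 with estradiol, and these overlapped. Its soy arrays read 11.69, 11.60 and 11.72, and with estradiol 11.79, 12.005 and 11.75. The differences were 0.08 (adjusted p = 0.422) and 0.18 (adjusted p = 0.0606), and neither was called. Without soy plus estradiol replicate 2, the highest of these, the soy difference was 0.10.

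The chaperones that build the core, Psmg1 to Psmg4, had 1 rise on casein (25%, where 21.9% of all probe sets rose). They had 2 rises on soy (50%, where 25.3% rose), with 0 falls on either diet. Psmg2, the partner of Psmg1 in assembling the alpha ring, read 10.54, 10.52 and 10.56 on casein and 10.87, 10.88 and 11.02 with estradiol. On soy it read 10.55, 10.56 and 10.63, and with estradiol 11.04, 11.10 and 10.89. The groups were apart on both diets, and it rose by 0.38 ± 0.07 (SE, adjusted p = 0.00141) on casein and 0.43 (adjusted p = 0.000570) on soy. Psmg1 rose on soy by 0.42 and differed by 0.18 on casein, which was not called. Psmg3 and Psmg4 were called in neither comparison.

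The immunoproteasome subunits went the other way on casein. All 3 measured, Psmb8, Psmb9 and Psmb10, fell with estradiol on casein, where 19.9% of all probe sets did. Their median was -0.69 log2, and these calls were kept under all 22 alternatives. Psmb8, the inducible form of the chymotrypsin-like subunit, read 8.48, 8.43 and 8.61 on casein and 7.60, 7.84 and 8.01 with estradiol. Psmb9, the inducible form of the caspase-like subunit, read 8.19, 8.08 and 8.28 on casein and 7.43, 7.47 and 7.57 with estradiol. Psmb10, the inducible form of the trypsin-like subunit, read 8.82, 8.92 and 8.93 against 8.45, 8.33 and 8.49. In each gene all 3 estradiol arrays lay below all 3 controls. Psmb8 fell by 0.69 ± 0.10 on the log2 scale (SE, adjusted p = 0.000454), a 1.61-fold decrease. Psmb9 fell by 0.69 ± 0.12 (SE, adjusted p = 0.000734), and Psmb10 by 0.47 ± 0.12 (SE, adjusted p = 0.00736).

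On soy 1 of the 3, Psmb8, fell (33.3%, where 24.3% of all probe sets did), and the other 2 were not called. Psmb8 read 8.30, 8.17 and 8.39 without estradiol and 8.09, 8.02 and 7.90 with it, and fell by 0.29 (adjusted p = 0.0361). This call was lost on the deposited and the centred values, at adjusted p of 0.164 and 0.128. It was also lost without soy replicate 1 (adjusted p = 0.0878), soy replicate 3 (0.127), soy plus estradiol replicate 2 (0.0512) or soy plus estradiol replicate 3 (0.111), in a range of 0.0136 to 0.164 over the alternatives. Psmb9 read 7.87, 7.82 and 8.05 on soy and 7.96, 8.02 and 7.54 with estradiol. Its groups overlapped, with a difference of -0.07 (adjusted p = 0.635) that turned to 0.03 on the deposited values and 0.02 on the centred ones, and was -0.16 (adjusted p = 0.266) without soy plus estradiol replicate 2. Psmb10 read 8.67, 8.75 and 8.88 on soy and 8.45, 8.89 and 8.37 with estradiol. Its difference was -0.20 (adjusted p = 0.168), and without soy plus estradiol replicate 2, whose value was near the controls, it was -0.36 (adjusted p = 0.00369), in a range of 0.00369 to 0.502.

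The interaction, the estradiol difference on soy minus that on casein, tests whether the diets differed in this. No member was called by limma, where 3.41% of all probe sets were, 1.12% as higher and 2.29% as lower; 5 members had an unadjusted p under 0.05. Psmb9 came nearest, at 0.63 ± 0.16 (SE, adjusted p = 0.0554). It was called on the deposited values (0.75, adjusted p = 0.0327), on the centred values (0.77, adjusted p = 0.0296), with array weights (0.48, adjusted p = 0.0209) and without soy plus estradiol replicate 3 (0.77, adjusted p = 0.0140), over a full range of 0.0140 to 0.138. For Psmb8 the interaction was 0.40 (adjusted p = 0.145). It was called on the centred values (0.57, adjusted p = 0.0421) and with array weights (0.49, adjusted p = 0.0256), and not on the deposited values (0.55, adjusted p = 0.0508), over a full range of 0.0256 to 0.295. For Psmb10 it was 0.27 (adjusted p = 0.373), and 0.11 without soy plus estradiol replicate 2. On quantile-normalized values, then, no gene passed the test of a difference between the diets, while the call depended on the setting for some, Psmb8 and Psmb9 among them.

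**Figure D2:**
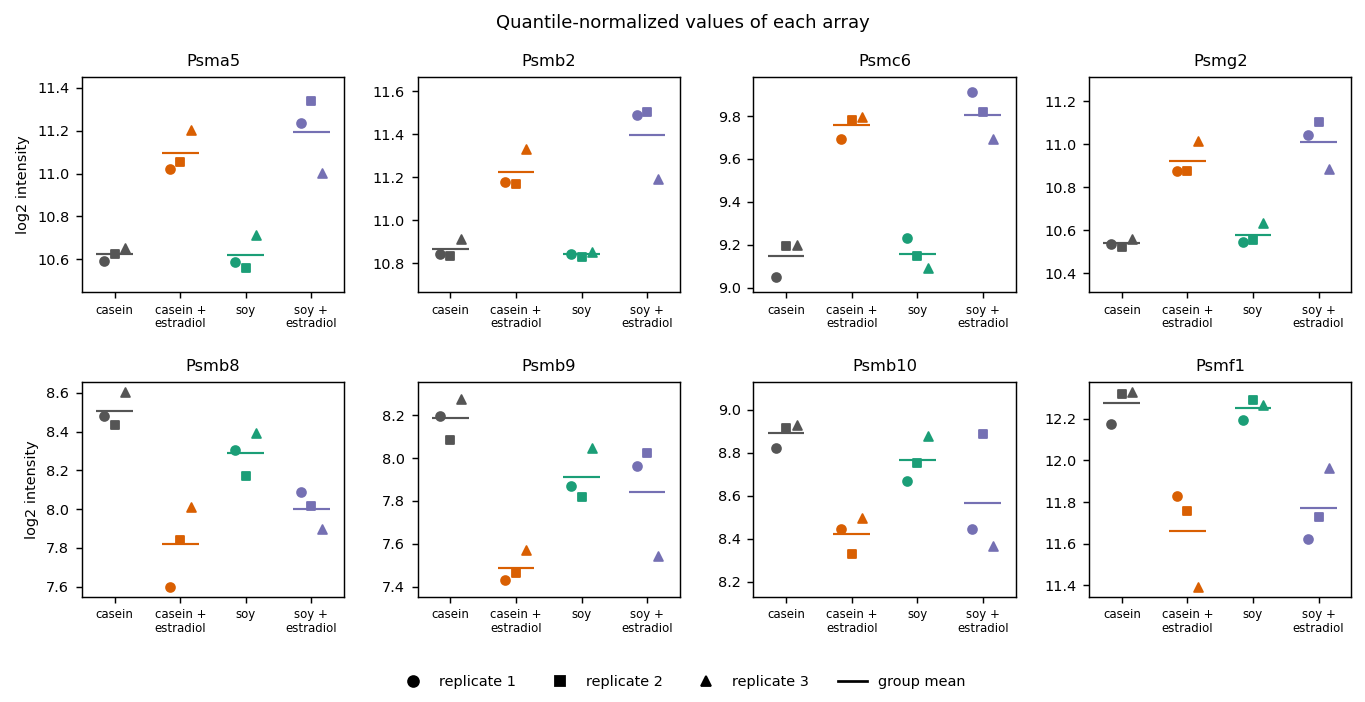
Quantile-normalized log2 intensity (y axis) of each array for 8 genes in the 4 groups (x axis); symbols are replicates and lines are group means. Psma5, Psmb2, Psmc6 and Psmg2 lie higher with estradiol on both diets, Psmf1 lies lower on both, and Psmb8, Psmb9 and Psmb10 lie lower with estradiol on casein while Psmb9 and Psmb10 overlap on soy; the Psmb2 rise on casein was not called on centred values.

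Macrophages and other leukocytes express the immunosubunits, and markers of these cells were also lower with estradiol on casein. Of 11 markers tested 7 fell (63.6%, where 19.9% of all probe sets did) and 0 rose there, with a median of -0.35. On soy 2 fell (18.2%, where 24.3% of all did) and 1 rose (9.09%, where 25.3% did), with a median of 0.09. The mean log2 level of the list ran from 8.03 to 8.26 on casein, 7.63 to 7.73 on casein with estradiol, 7.82 to 7.97 on soy and 7.84 to 8.00 on soy with estradiol. Adgre1, a surface marker of macrophages, fell by 1.53 on casein (adjusted p = 0.00156) and by 0.99 on soy (adjusted p = 0.0140). On soy Aif1, another gene of this list, was the other marker that fell, by 0.54 (adjusted p = 0.0352). Cd68, Csf1r, Tyrobp, Fcer1g and Lyz2 differed there by 0.09 to 0.19 and were not called. C1qa, C1qb and Mrc1 had lower means with estradiol on soy and were not called either. Of the casein plus estradiol arrays, replicate 3 read lowest for Adgre1 (6.10) and Aif1 (10.46). Of the soy plus estradiol arrays, replicate 1 did (6.23 and 11.02). The mean of the spermatid markers described below was also lowest in these arrays of their groups. Which cells these transcripts came from was not tested. Cd163 and Ptprc lay below the filter. Cd74, the invariant chain of antigen presentation, was the marker that rose on soy, by 1.16 (adjusted p = 0.00476), with 0.01 on casein. The part of macrophages and other leukocytes in the Psmb8, Psmb9 and Psmb10 differences was not tested. In whole testis, fewer cells of a type and less RNA per cell cannot be told apart.

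Of 10 genes listed as neighbours of the immunoproteasome in antigen processing, 7 were tested. Cd74, counted above among the macrophage markers, is also on this list. On casein 2 fell (28.6%, where 19.9% of all probe sets did) and 0 rose. On soy 2 fell (28.6%, where 24.3% did) and 3 rose (42.9%, where 25.3% did). Tap1, which carries peptides into the endoplasmic reticulum, fell by 0.31 (adjusted p = 0.0176) on casein and by 0.25 (adjusted p = 0.0376) on soy. Tapbp, which loads them, fell by 0.22 on both (adjusted p = 0.0402 and 0.0366). Tap2, the partner of Tap1, differed by 0.10 and 0.06 and was not called, and B2m was not called on either diet. Erap1, the peptide-trimming protease, and Irf1, an interferon-responsive factor, rose with Cd74 on soy, by 0.48 (adjusted p = 0.000874) and 0.39 (adjusted p = 0.0273).

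The 19S cap showed no common direction. Of its 6 ATPases 1 rose on casein (16.7%, where 21.9% of all probe sets did), with a median of 0.03, and -0.08 on the deposited values. On soy 1 rose (16.7%, where 25.3% did) and 1 fell (16.7%, where 24.3% did). The soy median was -0.14, and 0.05 without soy plus estradiol replicate 2. The gene that rose was Psmc6, on both diets. Psmc6 read 9.05, 9.19 and 9.20 on casein and 9.69, 9.78 and 9.80 with estradiol. On soy it read 9.23, 9.15 and 9.09, and with estradiol 9.91, 9.82 and 9.69. No estradiol array overlapped a control, and the rises were 0.61 ± 0.08 (SE, adjusted p = 0.000170) on casein and 0.65 ± 0.08 (SE, adjusted p = 0.000112) on soy, 1.52-fold and 1.57-fold. These were among the largest of the 46 genes in both comparisons and kept their calls under all 22 alternatives.

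Psmc3 was the ATPase that fell on soy. It read 12.76, 12.78 and 12.74 there and 12.54, 12.15 and 12.57 with estradiol, a fall of 0.34 (adjusted p = 0.00858). Without soy plus estradiol replicate 2 the fall was 0.20 (adjusted p = 0.00342), in a range of 0.00339 to 0.0278. On casein it read 12.82, 12.84 and 12.83 against 12.62, 12.61 and 12.61; these did not overlap, and the difference of -0.22 was not called (adjusted p = 0.0703) but was called on the deposited and the centred values. Psmc1, Psmc2, Psmc4 and Psmc5 were called in neither comparison.

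Of the 11 other cap subunits 4 rose on each diet (36.4%) and 0 fell. Of all probe sets 21.9% rose on casein and 25.3% on soy. The medians of these subunits were 0.17 on casein and 0.07 on soy. Without soy plus estradiol replicate 2 the soy median was 0.12 and 5 rose, and without replicate 1 of that group it was 0.006 and 3 fell. On casein these were Psmd1, Psmd2, Psmd6 and Psmd14, by 0.19 to 0.30, and none of the 4 was called on the deposited or the centred values, where the latter gave 3 falls instead. Psmd6 kept its call without any 1 array. Psmd14 lost its call without any 1 of the 9 arrays outside soy plus estradiol, and Psmd1 without any of these but casein replicate 3. Psmd2 lost it without casein replicate 2 or 3, casein plus estradiol replicate 2 or 3, or soy replicate 1 or 2, and the adjusted p of these losses lay between 0.0502 and 0.141. On soy Psmd1, Psmd4, Psmd6 and Psmd14 rose, by 0.25 to 0.29, under all 3 scalings, though the mean of the Psmd14 probe sets was not called. Psmd4 is a ubiquitin receptor and Psmd14 the enzyme that cuts ubiquitin chains from the substrate.

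The chaperones of the cap's base moved in both directions on casein. Psmd5 read 8.27, 8.07 and 8.11 on casein and 8.64, 8.32 and 8.74 with estradiol, a rise of 0.42 (adjusted p = 0.0163). It was lost without casein replicate 2 (adjusted p = 0.0601), casein replicate 3 (0.0552), casein plus estradiol replicate 1 (0.0576) or casein plus estradiol replicate 3 (0.0767), in a range of 6.59e-05 to 0.0767. Psmd10, known as gankyrin, read 9.69, 9.90 and 9.89 on casein and 9.30, 9.54 and 8.88 with estradiol, and fell by 0.59 (adjusted p = 0.0166). Casein plus estradiol replicate 3 was the lowest, and the call was lost without that array (adjusted p = 0.0781), casein replicate 2 (0.0559) or casein replicate 3 (0.0563), in a range of 0.000154 to 0.0781. Psmd9 fell by 0.37 (adjusted p = 0.0109), but its other probe set differed by 0.12 and the mean of both by -0.12, which was not called. On soy Psmd5, Psmd9 and Psmd10 differed by 0.15, -0.20 and -0.08, none of them called. Without soy plus estradiol replicate 2 they differed by 0.26, -0.30 and -0.26, and Psmd9 was called (adjusted p = 0.0168).

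Of the 3 activators measured, 2 rose and 1 fell on soy, where 25.3% of all probe sets rose and 24.3% fell. On casein 0 were called, where 41.8% of all probe sets were. Psme1 and Psme2 form PA28, an interferon-inducible ring that opens the core. Psme1 read 9.10, 9.02 and 9.07 on casein and 9.04, 9.01 and 9.41 with estradiol, and these overlapped. On soy it read 8.84, 8.90 and 8.86, and with estradiol 9.77, 9.40 and 9.07, a rise of 0.55 ± 0.15 (SE, adjusted p = 0.00865) with a wide spread. Psme2 read 9.06, 8.95 and 9.04 on casein and 9.16, 9.27 and 9.33 with estradiol, a difference of 0.23 that was not called (adjusted p = 0.0644). Its soy values were 9.001, 9.01 and 8.92, and with estradiol 9.65, 9.48 and 9.24, a rise of 0.48 (adjusted p = 0.00152). The interactions were 0.46 (adjusted p = 0.221) for Psme1 and 0.25 (adjusted p = 0.303) for Psme2.

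Psme4, the activator PA200, was read by 3 probe sets that disagreed. The brightest, 1368817_at, read 11.75, 11.68 and 11.60 on casein, 11.55, 11.70 and 11.55 with estradiol, 11.79, 11.80 and 11.72 on soy, and 11.52, 11.59 and 11.63 on soy with estradiol. It differed by -0.07 on casein and fell by 0.19 on soy (adjusted p = 0.0336). That call was lost without soy replicate 1 (adjusted p = 0.0950), soy replicate 2 (0.0929) or soy plus estradiol replicate 1 (0.0938), in a range of 0.00939 to 0.52. The probe set 1387345_at fell by 0.46 on soy (adjusted p = 0.0137). It read 10.51, 10.55 and 10.38 on soy and 10.17, 9.64 and 10.27 on soy with estradiol. Soy plus estradiol replicate 2 was the lowest of these, and the difference without that array was not computed for this probe set. The probe set 1368818_at rose by 0.30 on casein (adjusted p = 0.0172) and by 0.47 on soy (adjusted p = 0.00126), and all its estradiol arrays lay above its controls on both diets. No direction is given for the gene as a whole.

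**Figure D3:**
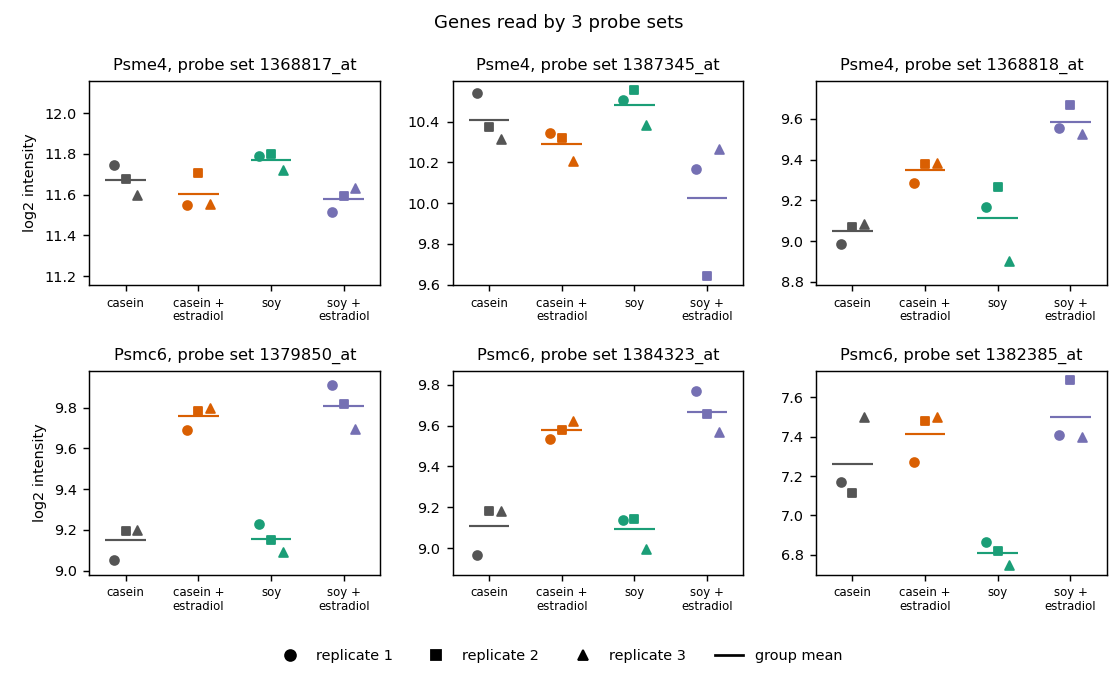
Quantile-normalized log2 intensity (y axis) of each array in the 4 groups (x axis) for the 3 probe sets of Psme4 (top) and of Psmc6 (bottom); symbols are replicates and lines are group means. For Psme4 the third probe set rises with estradiol, by 0.30 and 0.47, while the others do not, and for Psmc6 the third separates from its controls on soy and overlaps them on casein.

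Psmc6 was likewise read by 3 probe sets. The second, 1384323_at, rose by 0.47 on casein and 0.57 on soy. The third, 1382385_at, rose on soy by 0.69 (adjusted p = 0.000496) and differed by 0.15 on casein (adjusted p = 0.286). It also read 7.17, 7.12 and 7.50 on casein and 6.87, 6.82 and 6.75 on soy, a fall of 0.45 with soy (adjusted p = 0.0237) that the other probe sets did not show, their differences being 0.01 and -0.02. Of the 11 other probe sets above the filter, 6 had the same call as their gene's chosen probe set in each estradiol comparison. Besides Psme4, Psmc6 and Psmd9, the others with a different call were of Psmc4, Psmd11, Psmd14 and Psme1.

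Psmf1 encodes PI31, a protein that binds the core and is known as its inhibitor in the test tube. It read 12.18, 12.32 and 12.33 on casein and 11.83, 11.76 and 11.39 with estradiol. Its soy values were 12.19, 12.29 and 12.27, and with estradiol 11.62, 11.73 and 11.96. All estradiol arrays lay below all controls. It fell by 0.62 ± 0.11 (SE, adjusted p = 0.00125) on casein and by 0.48 ± 0.11 (SE, adjusted p = 0.00415) on soy, and both calls were kept under all 22 alternatives.

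Psmc3ip and Psme3ip1, listed here as name matches, were called in neither estradiol comparison. Psmc3ip, which works with the recombinases of meiosis, read 11.85 on all 3 casein arrays and 11.77, 11.92 and 11.72 with estradiol. On soy it read 11.85, 11.88 and 11.91, and with estradiol 11.77, 12.12 and 11.92. Its differences were -0.05 and 0.05. Psme3ip1 differed by 0.33 (adjusted p = 0.0679) and 0.05. The soy differences were -0.04 and 0.19 without soy plus estradiol replicate 2.

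Germ and Sertoli cell markers moved with estradiol in the same arrays. For comparison, 21.9% of all probe sets tested rose and 19.9% fell on casein, and 25.3% rose and 24.3% fell on soy. Of 14 spermatid markers 14 fell on casein (median -0.74) and 12 on soy (median -0.54). Their mean log2 level ran from 12.80 to 12.91 on casein, 11.64 to 12.32 on casein with estradiol, 12.81 to 12.91 on soy and 11.94 to 12.47 on soy with estradiol. Of 11 Sertoli cell markers 8 rose and 1 fell on casein, and 9 rose on soy. Their level ran from 9.40 to 9.43, 9.85 to 10.13, 9.31 to 9.36 and 9.82 to 10.18 in the same order. The 4 early meiosis markers measured rose on casein and 3 of them on soy, while of 8 Leydig cell markers 5 fell and 1 rose on casein and 6 fell and 1 rose on soy. The part of cell composition in the rises of the core subunits and in the fall of Psmf1 was not tested. Of 6 pachytene markers 1 rose and 2 fell on casein and 1 rose and 3 fell on soy, and of 5 spermatogonial markers 2 rose and 2 fell, and 2 rose and 1 fell. The mean of 5 adipose markers varied within groups, from 5.81 to 7.99 over the soy arrays, and 2 rose and 1 fell on casein and 0 rose and 1 fell on soy. No defining marker of spermatids, Sertoli or Leydig cells that the array carried under 1 symbol lay below the filter.

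Soy plus estradiol replicate 2 stood apart in the proteasome genes, and also over all probe sets tested. Its array weight, 0.222, was the smallest of the 12. It was the lowest of the 12 arrays by more than 0.2 log2 for 7 members, all of them cap subunits: Psmc1, Psmc2, Psmc3, Psmc5, Psmd3, Psmd8 and Psmd13. Of all probe sets tested, 5.37% were lowest there by that margin, the largest share of any array. The next was 3.07%, in soy plus estradiol replicate 1. It was the highest by that margin for 4 members, Psmb1, Psmb3, Psmb4 and Psmg3, against 4.90% of all. Psmc2, an ATPase, read 12.24 on this array and 12.78 to 12.84 on the other 11. Psmd8, a subunit of the lid, read 11.66 against 12.20 to 12.44. The median difference from the 2 other arrays of its group was -0.22 over 17 cap subunits, 0.22 over 13 core subunits and 0.02 over all probe sets tested.

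Replicate 3 of the same group leaned the other way in the core, with a median of -0.28 over the 13 core subunits and 0.06 over the cap. For replicate 1 these medians were 0.07 and 0.18. In the casein and soy controls these medians lay between -0.04 and 0.05. The call of Psmb8 on soy was lost without soy plus estradiol replicate 2, and Psmb10, Psmd9 and Psmd11 were gained. Among the 46 genes 5 soy differences turned in sign and 22 moved by over 1.5 times. With it left out, Psmc1, Psmc2, Psmc5 and Psmd8 differed by 0.08, 0.01, -0.01 and -0.09 with estradiol on soy, where with it they differed by -0.10, -0.18, -0.19 and -0.29; none of these was called. What set this array apart was not tested.

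**Figure D4:**
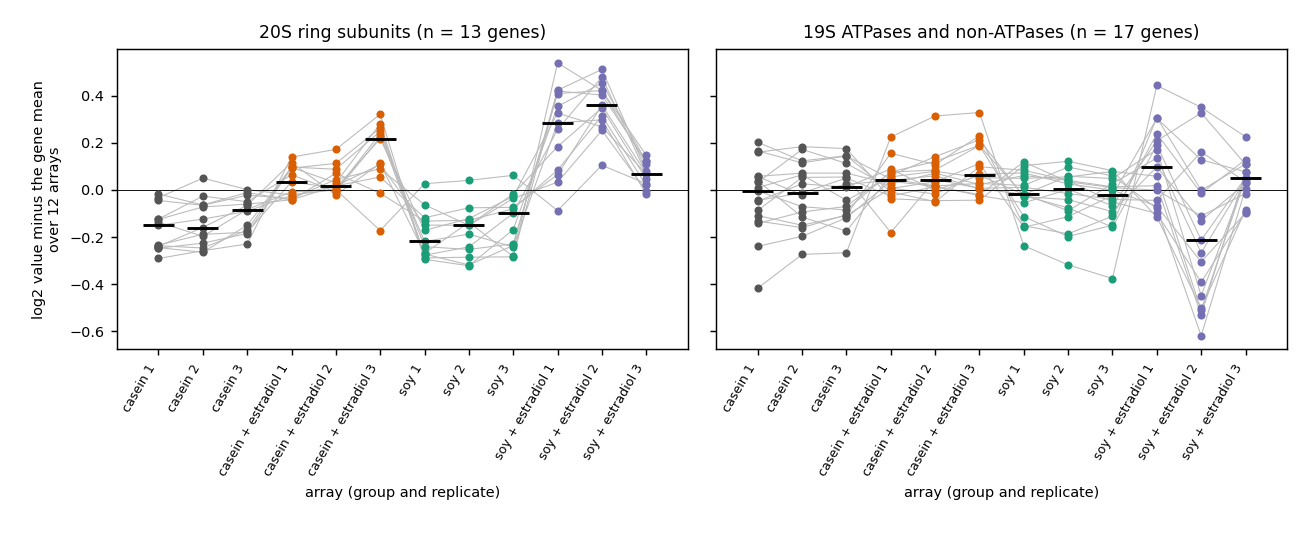
Log2 value minus the gene's mean over 12 arrays (y axis) for each array (x axis), for the 13 core ring subunits at left and the 17 cap subunits at right; points are genes, grey lines join a gene and black bars are medians. On these quantile-normalized values 12 of the 13 core subunits have a higher mean with estradiol on each diet, 5 of them called on casein and 11 on soy. Of all probe sets 21.9% were called higher on casein and 25.3% on soy. Soy plus estradiol replicate 2 is the lowest array for 10 of the 17 cap subunits, for 7 of them by more than 0.2 log2.

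Soy without estradiol, set against casein without estradiol, called 0 of 46 genes in limma, where 9.73% of all probe sets were called, 6.61% as higher and 3.12% as lower. The smallest adjusted p was 0.160, for Psmb9, and 1 member had an unadjusted p under 0.05. The median was -0.03 log2, 2 members lay above all casein arrays (17.9% of all probe sets) and 9 lay below (19.5%). This depended on the scaling. On the deposited values 4 fell, Psma1, Psmb8, Psmb9 and Psmd3, and on centred values Psmd13 fell as well, where the median of all probe sets was itself -0.11 and that of the members -0.16. The size was largest for Psmb9, at -0.27 on quantile-normalized, -0.39 on deposited and -0.42 on centred values. Over the same groups 1 of 11 macrophage markers fell and 0 rose, with a median of -0.28.

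Soy with estradiol against casein with estradiol also called 0 of 46 genes in limma, where 0.0046% of all probe sets rose and 0% fell. Here 7 members had an unadjusted p under 0.05, the smallest adjusted p was 0.268, again for Psmb9, and the median was 0.10 (0.04 without soy plus estradiol replicate 2). All 3 soy arrays lay above all 3 casein arrays in 3 members (6.54% of all probe sets) and below in 4 (7.94%). Psmb9 read 7.43, 7.47 and 7.57 on casein with estradiol and 7.96, 8.02 and 7.54 on soy with estradiol. The difference was 0.35, and 0.50 (adjusted p = 0.0307) without soy plus estradiol replicate 3, the 1 low array, in a range of 0.0307 to 0.638 over the alternatives.

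**Figure D5:**
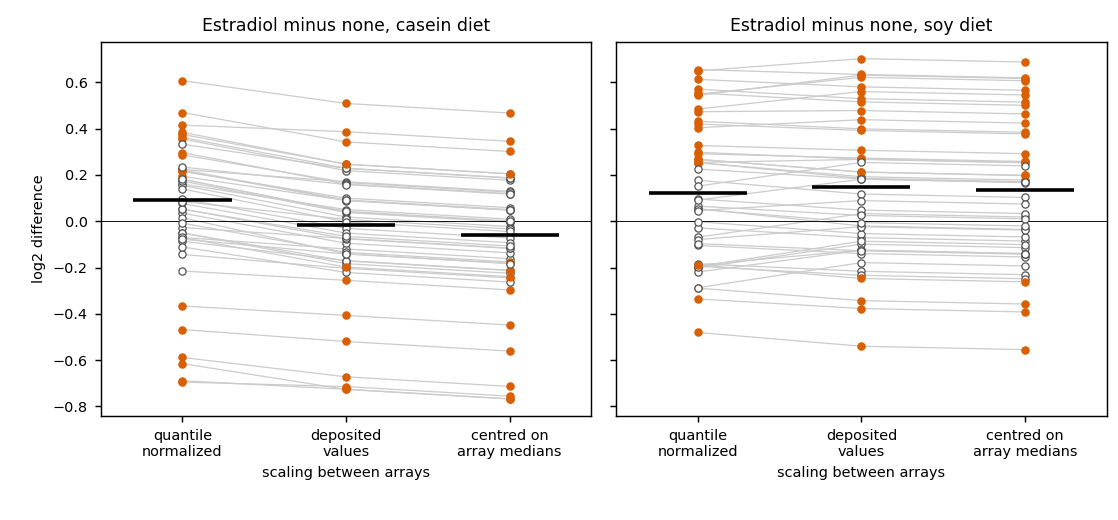
Log2 difference of estradiol minus none (y axis) of the 46 genes under 3 scalings between arrays (x axis), on casein at left and soy at right; points are genes, filled where called, grey lines join a gene and black bars are medians. On casein the median moves from 0.09 to -0.02 and -0.06 and 11 genes change sign, while on soy it stays between 0.12 and 0.15 and 3 change sign.

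Other genes of the pathway were counted from a list, of which 28 of 34 were measured. They were tested only on quantile-normalized values of all 12 arrays, so how their calls depend on scaling is not known. With estradiol on casein 10 rose (35.7%, where 21.9% of all probe sets did) and 6 fell (21.4%, where 19.9% did), with a median of 0.18. On soy 12 rose (42.9%, where 25.3% did) and 6 fell (21.4%, where 24.3% did), with a median of 0.10. Soy against casein called 0 of 28, without or with estradiol. Of 10 partners of the particle, 4 rose and 1 fell on casein, and 4 rose and 3 fell on soy. Pomp, the chaperone that completes the core, rose by 0.21 and 0.35, and Sem1, a small cap subunit, by 0.20 and 0.33. Ube3c, a ubiquitin ligase on the particle, fell by 0.29 and 0.38. Akirin2, which carries proteasomes into the nucleus, differed by 0.24 on casein (adjusted p = 0.169) and fell by 0.51 on soy (adjusted p = 0.00808).

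Among these pathway genes, those that handle ubiquitin held the largest rises. Of 11 measured 5 rose (45.5%) and 3 fell (27.3%) on casein, and 7 rose (63.6%) and 3 fell (27.3%) on soy. Among all probe sets 21.9% rose and 19.9% fell on casein, and 25.3% rose and 24.3% fell on soy. Zfand5, which is known to stimulate the particle, rose by 0.80 (adjusted p = 0.00147) and 0.75 (adjusted p = 0.00170). Ubqln2, a shuttle that brings ubiquitinated proteins, rose by 0.64 (adjusted p = 0.000823) and 0.99 (adjusted p = 8.73e-05), while its relative Ubqln1 fell by 0.24 and 0.29. Vcp, the ATPase that unfolds substrates ahead of the particle, rose by 0.56 and 0.43, and its cofactors Ufd1 and Nploc4 fell, by 0.25 and 0.48 and by 0.31 and 0.37. Nfe2l1 (Nrf1), the factor known to drive subunit genes when the proteasome is inhibited, differed by 0.19 on casein (adjusted p = 0.108) and rose by 0.25 on soy (adjusted p = 0.0349). Keap1 fell by 0.40 on casein, and Nfe2l2 (Nrf2) was called on neither diet, at 0.03 and -0.09.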

How the data were processed

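The authors deposited log2 intensities of 31099 probe sets per array, from the Affymetrix software GCOS per the submitters' processing notes. Its background correction, summarisation and normalization are not given in the sources used here; that the scale is log2 follows from the range of the values. Array quartiles differed by up to 0.183 log2, so values were quantile-normalized, with the deposited values as an alternative. Left out were 57 control probe sets and the 30% with the lowest means. The other 21729 entered 1 model of 4 groups in limma 3.58.1 under R 4.3.3 (lmFit and eBayes with trend, 8 residual degrees of freedom), with Benjamini-Hochberg adjustment over all probe sets. For 3 arrays against 3, the smallest two-sided p of an exact test would be 0.1. The number of arrays limits the precision; the median standard error of a difference was 0.0923 log2. The procedure was tested on simulated data.

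Every member could be named; array values were given for genes of fixed interest (the protease, activator and inhibitor genes, Psma7 and Psmc3ip) and for the 4 called members with the largest rise and fall in each comparison. Values of Psmb2, Psmc2 and Psmd8 are also shown, chosen after their values were seen. The members, gene lists and tests were chosen with earlier results of these data known. The interferon and gamma-activated motifs were added after the other motifs. Symbols came from the platform annotation, and all 46 members matched a rat gene by Entrez ID. Promoter windows came from RefSeq, GRCr8. Results of the members were recomputed under 20 other settings: scaling, filter, array weights, mean of probe sets, replicate block and each array left out. A further 2 settings, chosen after seeing the data, left out pairs of arrays. The cell markers, antigen processing genes and other pathway genes were not tested under these settings. Replicate numbers were not taken to pair arrays. Over 18 same-numbered pairs across groups, the correlation of deviations from group means ran from -0.36 to 0.35, and 4 exceeded 0.1.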

Additional observations from a re-analysis of the deposited data

How the results depend on the processing

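Counts of called members on casein depended on scaling. With estradiol on casein the count of rises was 5 on the deposited values and 4 on centred values, and the count of falls was 11 on centred values. For soy without estradiol the count of falls was 4 on the deposited values, 5 on centred values and 1 with array weights. The interaction called 1 member higher on the deposited values, 2 on centred values and 3 with array weights. Array weights also gave 8 falls with estradiol on soy and 1 fall for soy under estradiol. With casein plus estradiol replicate 2 and soy plus estradiol replicate 1 left out, a pair chosen after seeing the data, soy under estradiol had 2 falls, and the interaction 1 rise and 1 fall. Leaving out each array in turn gave 6 to 18 rises and 5 to 7 falls on casein. It gave 19 to 22 rises and 2 to 6 falls on soy, 0 to 1 rises for soy under estradiol and 0 to 1 for the interaction. With the replicate number as a block, 10 rose and 6 fell on casein and 21 rose and 4 fell on soy, with 0 calls in the other comparisons; the numbers do not pair the samples by the deviations. No result reversed while called. Of the 18 calls on casein 7 were kept under every alternative, and of the 24 on soy 19 were. Among all probe sets the share of rises among the calls moved from 52.5% to 40.9% on casein and from 68.0% to 36.7% for soy without estradiol when arrays were centred, and from 32.9% to 58.9% for the interaction. The cause of these shifts was not tested. Signal over background was not used here, so levels near the filter have no measured floor.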
